A study of Drosophila melanogaster with 10 samples.

Results

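The cytoplasmic ribosomal protein genes encode the proteins of the ribosomes that translate nuclear mRNAs. They were taken as every gene of the deposited table whose FlyBase symbol begins with RpL, RpS, RpLP or RpSP followed by a number and does not end in "-like", together with sta, which encodes a small subunit protein. This rule, which uses names and no measured value, found 88 of 17807 genes, 50 of the large subunit and 38 of the small subunit. Their levels were followed in RNA from *Drosophila melanogaster* wing disks of 5 groups with 2 libraries each. All groups carried *MS1096-Gal4*, a driver most active in the wing pouch, so that only a portion of the cells in each sample expressed the transgene strongly. Under this driver the disks expressed GFP as the control, GFP-tagged full-length Nkd (a negative feedback regulator of Wingless signaling), or the deletion forms NkdΔR1S, which is missing the region for binding Dsh, and NkdΔ30aa and NkdΔD6, from each of which a candidate nuclear localization signal was removed. The larvae were at the end of their last instar and were raised at 25 °C, and each RNA sample pooled the disks of many animals. The duplicates of a group are described as biological, but separate crosses are not stated, so p-values here measure the spread between these samples, some of which may be technical.

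Each ribosome holds a single copy of most of these proteins, and their genes are expressed strongly and in near-equal proportion in growing tissue. In *Drosophila*, loss of 1 copy of many of them gives the Minute phenotype of slow development and thin bristles, and in the wing disk Minute cells are eliminated by cell competition with wild-type neighbours. Their mRNAs are short, and many of the genes carry snoRNA genes in their introns. In bulk samples such as these, fewer cells of a type and less RNA per cell cannot be told apart.

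The libraries held 18695697 to 20941842 counts, so that depth differed little between groups. *nkd* was counted at 37.3 and 70.1 CPM (counts scaled to the TMM-normalized library size) in the GFP libraries, at 345 and 512 CPM in NkdΔR1S and at 993 to 1498 CPM in the other groups, where the transgene and the endogenous gene cannot be told apart. Markers of the wing disk summed to 678 and 901 CPM in GFP, 797 to 1040 CPM in Nkd, NkdΔR1S and NkdΔD6, and 1284 and 1367 CPM in NkdΔ30aa. Of these 7 genes, 5 were called in at least 1 comparison with GFP, and their part in the results below was not tested. Those of the germ line summed to at most 0.744 CPM. Markers of the salivary gland, a tissue that lies near the disks, were unevenly present. Their sum was highest in the first Nkd library (15981 CPM) and the first GFP library (5137 CPM), whereas the second Nkd library had 199.7 CPM, the second GFP library 648 CPM and the other 6 libraries 54.7 to 1480 CPM. The libraries also differed in how long genes were counted relative to short ones. Each gene's level in a library was set against its average over the 10 libraries, and the rank correlation of that difference with exon length, across genes, was -0.616 and -0.479 in GFP, 0.00309 and 0.287 in Nkd, -0.426 and -0.0380 in NkdΔR1S, 0.620 and 0.551 in NkdΔ30aa, and 0.281 and 0.136 in NkdΔD6. Because the ribosomal protein genes are short (exon length 288 to 3835 bases, median 901, against 2020 for all genes tested), their fold changes are set below beside genes of like length.

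Ribosomal protein genes took up a large portion of each library, and this portion was smaller in every Nkd, NkdΔ30aa and NkdΔD6 library than in both GFP libraries. In GFP disks they held 33.0% and 30.7% of all counts. They held 25.0% and 25.3% in Nkd disks, 22.6% and 22.5% in NkdΔ30aa disks, and 26.4% and 26.7% in NkdΔD6 disks. The NkdΔR1S libraries stood apart from each other, at 32.2% in replicate 1, which lies between the GFP libraries, and 27.2% in replicate 2, which lies below both. As means these shares were 31.9% ± 1.57 in GFP, 25.1% ± 0.194 in Nkd, 29.7% ± 3.55 in NkdΔR1S, 22.6% ± 0.0807 in NkdΔ30aa and 26.5% ± 0.187 in NkdΔD6 (SD, n = 2 per group). Leaving out the counts of salivary gland, fat body and larval muscle markers gave 25.5% in Nkd replicate 1 and 25.3% in replicate 2, against 33.2% and 30.8% in the GFP libraries. These markers held at most 1.90% of a library's counts, so leaving them out could move the shares only slightly. Other transcripts of those tissues stayed in, and their part in the shares was not tested. Counts in large subunit genes were 1.41 and 1.40 times those in small subunit genes in the GFP libraries. In every other library this ratio was higher, from 1.42 to 1.46, a difference that was not tested.

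**Figure D1:**
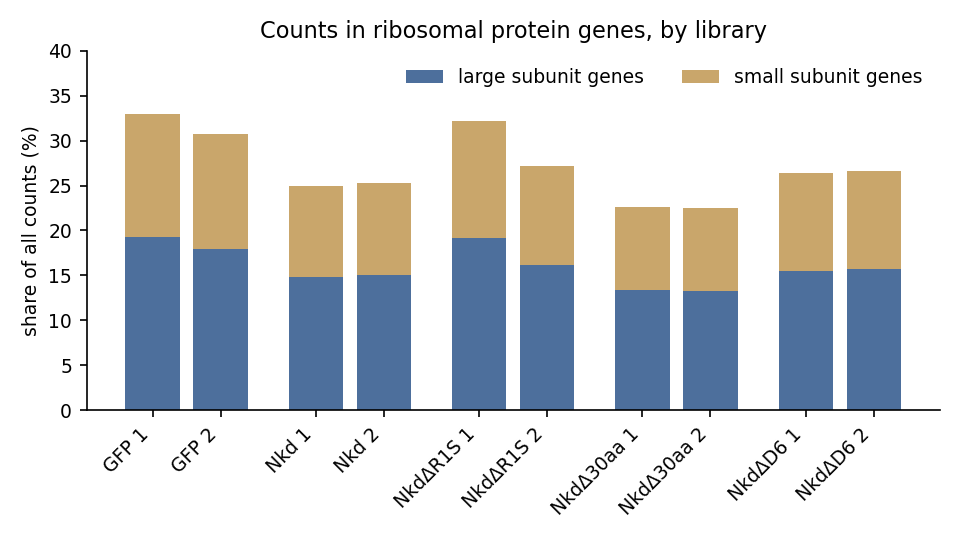
Share of all counts in ribosomal protein genes (%, from 0) in each of the 10 libraries, with large and small subunit genes stacked; the number after a group is the replicate. The GFP bars reach 33.0% and 30.7%, the NkdΔ30aa bars 22.6% and 22.5%, and the NkdΔR1S replicates differ from each other.

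Of the 88 genes, 84 passed the expression filter. The other 4, RpL10Aa, RpS10a, RpS28a and RpL37-2, were nearly silent copies of an expressed gene and were not tested. Per kb of exon and averaged over the 10 libraries, the highest levels were those of RpL41 (22681 CPM per kb), RpLP2 (9169), RpL23 (7125), RpL14 (7077) and RpL27A (6769). RpL41 encodes a peptide of 25 residues, the shortest of the ribosome, and RpLP2 an acidic protein of the stalk. The lowest levels among the tested genes were those of RpS5b (1.7 CPM per kb), RpS19b (4.8), RpS15Ab (322), RpL22 (736) and RpS14b (898), of which all but RpL22 have a second, more strongly counted copy.

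A gene was called higher or lower where it changed more than 1.5-fold and edgeR's quasi-likelihood test gave an adjusted p below 0.05, adjusted over all 9264 genes tested. Compared with GFP disks, 32 of the 84 tested ribosomal protein genes were lower in Nkd disks and 0 were higher (0 also by DESeq2 and with the p left unadjusted at 0.05), where 4.51% of all genes tested were lower and 3.05% higher. Their median log2 fold change was -0.56, against -0.05 for all genes tested. In NkdΔ30aa disks 54 were lower and 1, RpL22, was higher, where 12.8% of all genes tested were lower and 18.2% higher, and the medians were -0.67 and -0.13. In NkdΔD6 disks 14 were lower and 1, again RpL22, was higher, where 5.81% of all genes tested were lower and 10.4% higher, and the medians were -0.42 and -0.10. In NkdΔR1S disks edgeR called 0 in either direction (0 by DESeq2, and 0 with the p left unadjusted at 0.05), where 0.119% of all genes tested were lower and 0.054% higher. The medians there were -0.21 and -0.03, and the former was -0.01 without NkdΔR1S replicate 2 and -0.31 without NkdΔR1S replicate 1. These 4 comparisons share the GFP libraries. Without GFP replicate 1, 0 genes were lower in Nkd and 0 in NkdΔD6, while 45 were lower in NkdΔ30aa. The count for Nkd was also 0 when either Nkd library was left out, and 16 without GFP replicate 2. That for NkdΔD6 was 0 without NkdΔD6 replicate 1 and 5 without NkdΔD6 replicate 2.

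Many of these genes shifted by less than the fold threshold. With the adjusted p alone, 59 genes were lower in Nkd disks, 73 in NkdΔ30aa and 40 in NkdΔD6, where 10.1%, 21.9% and 13.3% of all genes tested were lower. Among the 2189 other genes of like exon length, as defined below, 24.6%, 48.1% and 25.6% were lower. By that rule 0 were higher in Nkd, where 5.97% of all genes tested and 0.228% of those of like length were higher, and 0 were called in NkdΔR1S. Both libraries lay below both GFP libraries for 81 of 84 genes in Nkd (36.1% of all genes tested), 77 in NkdΔ30aa (42.4%), 75 in NkdΔD6 (39.5%) and 33 in NkdΔR1S (26.5%). For the genes of like length these shares were 63.9%, 75.1%, 63.6% and 37.4% in that order. The 33 genes in NkdΔR1S were 39.3% of the ribosomal protein genes, near the share for like length. RpL3 was the single gene with both Nkd libraries above both GFP libraries, where 28.2% of all genes tested and 3.75% of those of like length lay above.

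**Figure D2:**
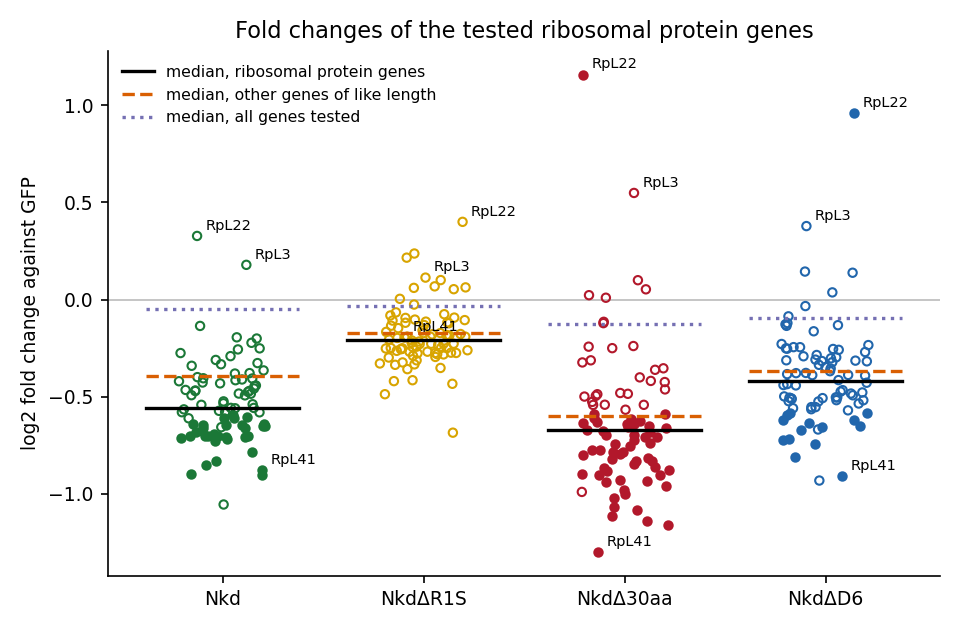
Log2 fold change against GFP of the 84 tested ribosomal protein genes (points; filled where called by edgeR) in each group, with the median of these genes (solid line), of 2189 other genes of like exon length (dashed) and of all genes tested (dotted). The solid and dashed lines lie at -0.67 and -0.60 in NkdΔ30aa and at -0.56 and -0.39 in Nkd, and RpL22 lies above all others.

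Other genes of like length were shifted in the same direction, by somewhat less. The few that also matched in level shifted by at least as much in Nkd, NkdΔ30aa and NkdΔD6, and by less in NkdΔR1S. Genes of like length were the 2189 tested genes outside the group with an exon length from 599.1 to 1357.4 bases, the range that holds the tested ribosomal protein genes from their 10th to their 90th percentile. On the log2 scale their median fold change was -0.39 in Nkd, -0.17 in NkdΔR1S, -0.60 in NkdΔ30aa and -0.37 in NkdΔD6, with 246, 4, 675 and 258 genes lower, or 11.2%, 0.183%, 30.8% and 11.8%. Ribosomal protein genes are also counted far more deeply than most genes, which bears on how often a shift of a given size is called. Just 7 genes outside the group matched both in length and in level (1955 CPM or more), and their medians were -0.61, -0.12, -0.68 and -0.53 in the same order. Of these 7 genes, 3, 0, 3 and 0 were called lower. In a fit with offsets that remove each library's smooth trend on exon length across all genes, the median of the ribosomal protein genes was -0.12, -0.07, -0.08 and -0.03, and edgeR called 0, 0, 1 and 1 of them lower. No test of the group against other genes was made.

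Other broadly expressed complexes were examined in the same way. Of 71 tested genes for proteins of the mitochondrial ribosome, 14 were lower in Nkd, 0 in NkdΔR1S, 37 in NkdΔ30aa and 6 in NkdΔD6. These were 19.7%, 0%, 52.1% and 8.45%, against 4.51%, 0.119%, 12.8% and 5.81% of all genes tested. The genes of like length above gave 11.2%, 0.183%, 30.8% and 11.8%. The medians of the mitochondrial ribosome genes were -0.46, -0.19, -0.59 and -0.33, or -0.007, -0.05, 0.03 and 0.09 with length offsets. Of 65 tested nuclear genes of oxidative phosphorylation, 15, 0, 32 and 5 were lower, or 23.1%, 0%, 49.2% and 7.69%. Their medians were -0.45, -0.17, -0.63 and -0.25, or -0.06, -0.03, -0.02 and 0.12 with length offsets. Of 35 tested proteasome subunit genes, whose median exon length is 1393 bases, 1, 0, 4 and 1 were lower, or 2.86%, 0%, 11.4% and 2.86%. With so few genes, these shares are not distinguished from those of all genes tested. Of the same 35 genes, 1, 0, 2 and 2 were higher. Their medians were -0.23, -0.06, -0.36 and -0.17, and all were above 0 with length offsets.

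Within the group, the shortest coding sequences had the lowest fold changes in Nkd, NkdΔ30aa and NkdΔD6 disks. The 82 genes with a mean of at least 5 CPM were split by the coding length of their longest isoform into 28 genes of up to 417 bases, 27 of up to 564 bases and 27 longer ones. In NkdΔ30aa disks 27 of the shortest, 16 of the middle and 11 of the longest were lower, with medians of -0.83, -0.63 and -0.53. In Nkd disks the counts were 16, 10 and 6 and the medians -0.63, -0.48 and -0.47, and in NkdΔD6 disks the counts were 8, 4 and 2 and the medians -0.51, -0.32 and -0.36. Across these 82 genes, which share their libraries and so are not independent, the rank correlation of coding length with the log2 fold change was 0.48 in Nkd, 0.59 in NkdΔ30aa and 0.55 in NkdΔD6, but -0.17 in NkdΔR1S. It was 0.22, 0.32, 0.36 and -0.12 in the fit with length offsets, in the order Nkd, NkdΔ30aa, NkdΔD6 and NkdΔR1S. With exon length in place of coding length it was 0.34, 0.47, 0.33 and -0.16 in that order. Across all genes tested, which span a wider range of lengths, it was 0.55, 0.66, 0.52 and 0.43. Across the 2189 genes of like length it was 0.17, 0.26, 0.14 and 0.06.

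**Figure D3:**
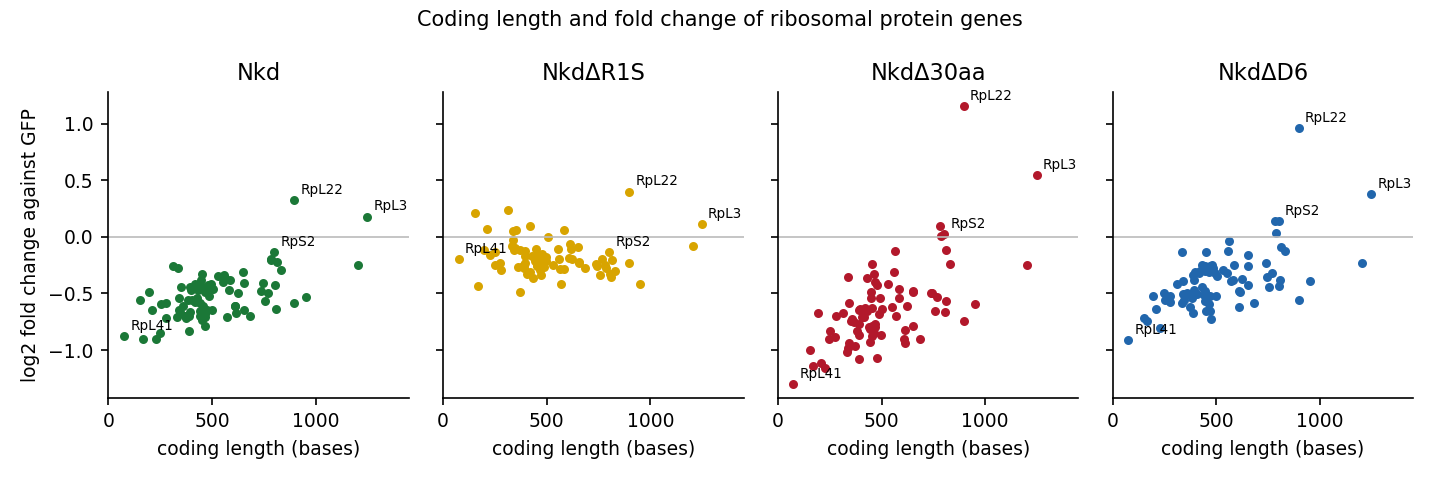
Coding length of the longest isoform (bases) against log2 fold change relative to GFP for the 82 ribosomal protein genes with a mean of at least 5 CPM, 1 panel for each group. Values climb from RpL41 at the left to RpL3 at the right in Nkd, NkdΔ30aa and NkdΔD6 but not in NkdΔR1S, and RpL22 stands above genes of its length.

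RpL41 (FBgn0066084, chromosome 2R from 24903416 to 24903935 of BDGP6, 320 exon bases) had the lowest fold change in NkdΔ30aa and NkdΔD6 disks among the 82 genes with a mean of at least 5 CPM. Its level was 12367 and 9265 CPM in GFP, 5554 and 6222 in Nkd, 11581 and 7306 in NkdΔR1S, 4769 and 4016 in NkdΔ30aa, and 5369 and 6131 in NkdΔD6. Both libraries of Nkd, NkdΔ30aa and NkdΔD6 lay below both GFP libraries, whereas NkdΔR1S replicate 1 lay between them. RpL41 was 2.46-fold lower in NkdΔ30aa (log2 -1.30 ± 0.23 SE, edgeR adjusted p = 0.00271), 1.88-fold lower in NkdΔD6 (adjusted p = 0.0237) and 1.84-fold lower in Nkd (adjusted p = 0.0407). With length offsets it was -0.49 in NkdΔ30aa, which no longer passed the fold threshold, and the calls in Nkd and NkdΔD6 were lost too. The Nkd call was also lost without any 1 of the 4 libraries (adjusted p from 0.0558 to 0.212), and the NkdΔD6 call without GFP replicate 1 (0.140), NkdΔD6 replicate 1 (0.179) or NkdΔD6 replicate 2 (0.0652).

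RpL29 and RpS29, proteins of the large and the small subunit, were next in size. RpL29 was measured at 3244 and 2556 CPM in GFP, 1511 and 1583 in Nkd, 2833 and 2361 in NkdΔR1S, 1351 and 1240 in NkdΔ30aa, and 1631 and 1679 in NkdΔD6. Here too the GFP and NkdΔR1S libraries overlapped and the other groups lay below. RpL29 was 2.24-fold lower in NkdΔ30aa (log2 -1.16 ± 0.13 SE, edgeR adjusted p = 0.000983), 1.87-fold lower in Nkd (adjusted p = 0.0223) and 1.75-fold lower in NkdΔD6 (adjusted p = 0.0099). RpS29 had 6734 and 4911 CPM in GFP disks, 3068 and 3168 in Nkd, 4719 and 3900 in NkdΔR1S, 2742 and 2547 in NkdΔ30aa and 3303 and 3639 in NkdΔD6. Its libraries lay below both GFP libraries in all 4 groups, and it was called in Nkd (log2 fold change -0.90), NkdΔ30aa (-1.14) and NkdΔD6 (-0.75) but not in NkdΔR1S (-0.43, adjusted p = 0.201). The NkdΔ30aa calls of RpL29 and RpS29 held without any 1 library. Their Nkd calls were lost without GFP replicate 1 or either Nkd library (adjusted p from 0.0689 to 0.125), and their NkdΔD6 calls without GFP replicate 1 or NkdΔD6 replicate 1 (0.0742 to 0.127). With length offsets both stayed negative in all 3 groups, from -0.57 to -0.26, and none reached the fold threshold. RpL38 (-1.12 in NkdΔ30aa), RpS21 (-0.85 in Nkd) and RpL21 (-0.72 in NkdΔD6) completed the 4 lowest of their comparisons among these 82 genes. RpS19b, which stood at 1.61 to 6.05 CPM, gave -1.06 in Nkd (adjusted p = 0.166) and -0.93 in NkdΔD6 (adjusted p = 0.192), neither of which passed the test.

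RpL22 had the highest fold change of the group against GFP in all 4 comparisons. It encodes a large subunit protein that in *Drosophila* has a long N-terminal extension resembling the tail of histone H1. The gene lies on chromosome X from 762560 to 765130 of BDGP6 on the minus strand (FBgn0015288), with 1100 exon bases, within the range of like length. Its level was 418 and 625 CPM in GFP, 563 and 746 in Nkd, 685 and 693 in NkdΔR1S, 1215 and 1115 in NkdΔ30aa, and 1031 and 1001 in NkdΔD6. The NkdΔ30aa and NkdΔD6 libraries all lay above the other groups, the NkdΔR1S libraries lay just above both GFP libraries, and the Nkd libraries overlapped with GFP. RpL22 was 2.23-fold higher in NkdΔ30aa than in GFP disks (log2 1.16 ± 0.19 SE, edgeR adjusted p = 0.00203) and 1.95-fold higher in NkdΔD6 (log2 0.96 ± 0.19 SE, adjusted p = 0.0126). In Nkd it was 0.33 (adjusted p = 0.252) and in NkdΔR1S 0.40 (adjusted p = 0.276), neither of which passed the test, although the Nkd value was 0.77 without GFP replicate 2 (adjusted p = 0.0497). The NkdΔ30aa call held under all 12 alternatives, with log2 fold changes from 0.90 to 1.66 and adjusted p up to 0.0234, and length offsets gave 1.66. The NkdΔD6 call was lost without GFP replicate 1 (adjusted p = 0.0800) and without NkdΔD6 replicate 1 (adjusted p = 0.115). Among the 2189 genes of like length, 17 were called higher in NkdΔ30aa and 13 in NkdΔD6.

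As a portion of all ribosomal protein counts, RpL22 took 0.115% and 0.192% in GFP, 0.236% and 0.315% in Nkd, 0.201% and 0.263% in NkdΔR1S, 0.543% and 0.509% in NkdΔ30aa, and 0.391% and 0.386% in NkdΔD6. On this scale, which does not depend on the normalization between libraries, both GFP libraries lay below all others. The portion also rises where the other ribosomal protein genes fall, and together they held 31.9% of all counts in GFP and 25.1% in Nkd. In CPM the Nkd and GFP libraries overlapped for RpL22. Of its exon bases, 34.3% are shared with lncRNA:CR42491 on the same strand, so the assignment of reads between these genes is uncertain. lncRNA:CR42491 was counted at 362 and 261 CPM in GFP and at 212 and 199 CPM in NkdΔ30aa. The related gene RpL22-like, which the rule leaves out and which is known for its expression in the germ line, stood at 2.48 to 4.24 CPM in every library.

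RpL3 (FBgn0020910, chromosome 3R from 11221894 to 11225173, 2231 exon bases), which reaches into the peptidyl transferase centre, was the other gene that stood above GFP in every group. Its level was 2601 and 2660 CPM in GFP, 3120 and 2835 in Nkd, 2837 and 2853 in NkdΔR1S, 3821 and 3877 in NkdΔ30aa, and 3675 and 3164 in NkdΔD6. Every library of the other groups lay above both GFP libraries. The log2 fold change was 0.55 in NkdΔ30aa (standard error 0.10, adjusted p = 0.00237 by edgeR) and 0.38 in NkdΔD6 (standard error 0.10, adjusted p = 0.0235), so both passed the adjusted p but neither reached the fold threshold in the main fit, and 0.18 in Nkd (adjusted p = 0.215). The NkdΔD6 value lost its adjusted p without GFP replicate 1 (0.131) or NkdΔD6 replicate 1 (0.12), and the NkdΔ30aa value passed the fold threshold without GFP replicate 2 (0.60). After RpL22, RpL3 had the highest NkdΔ30aa value among the ribosomal protein genes of at least 5 CPM. While 1 ribosomal protein gene was called higher there in the main fit, the count depended on the setting. It was 2 with RLE normalization, either DESeq2 fit, edgeR on the 4 libraries or length offsets. RpL3 has the longest coding sequence of the group, and 18.5% of its exon bases lie opposite asRNA:CR31144, which held at most 2 counts in a library. RpL22 and RpL3 were the single genes with a higher level by adjusted p alone in NkdΔ30aa and in NkdΔD6, where 23.8% and 13.8% of all genes tested were higher by that rule. Of the 2189 genes of like length, whose range RpL3 exceeds, 0.822% and 0.594% were higher by it.

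**Figure D4:**
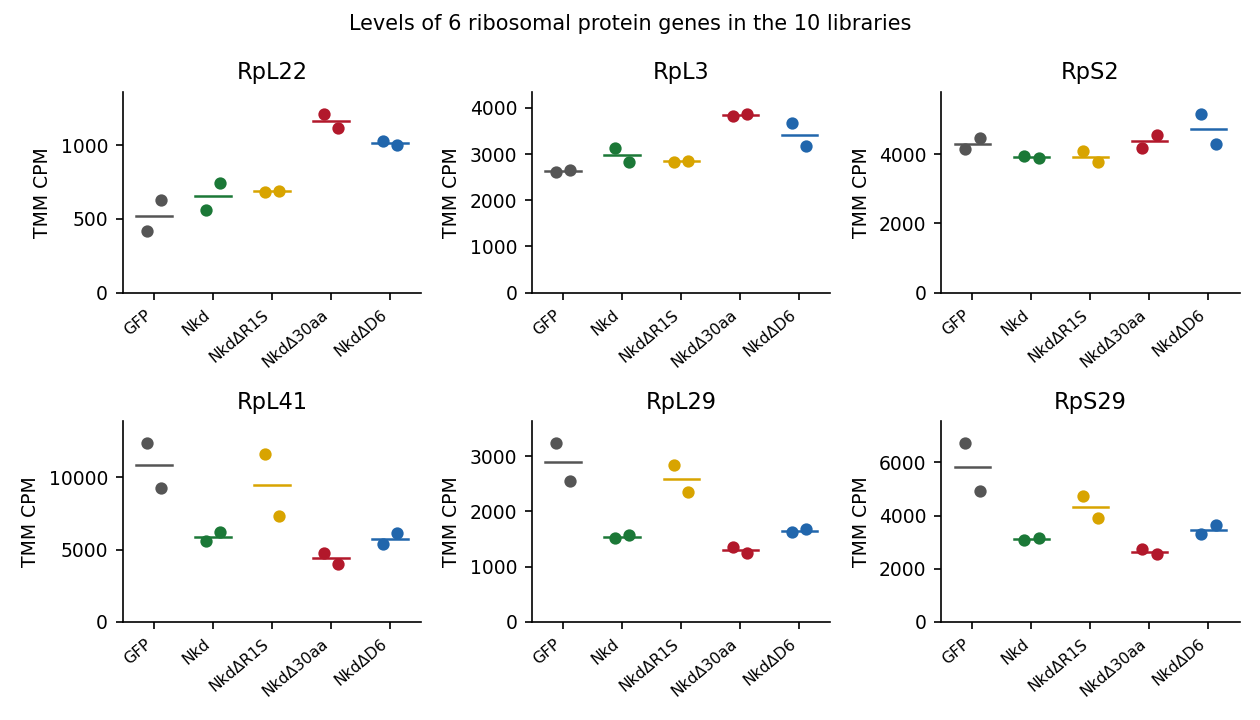
TMM-normalized CPM (from 0) of RpL22, RpL3, RpS2, RpL41, RpL29 and RpS29 in each library, with 2 points and a mean line for each group. RpL22 and RpL3 are highest in NkdΔ30aa and NkdΔD6, and RpL41, RpL29 and RpS29 are lowest in Nkd, NkdΔ30aa and NkdΔD6.

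Small subunit genes differed among themselves. RpS2, a protein of the mRNA entry channel, gave -0.14 in Nkd, 0.02 in NkdΔ30aa and 0.14 in NkdΔD6, and RpS4 gave -0.19, 0.10 and 0.14, none of which passed the test. RpS2 stood at 4146 and 4459 CPM in GFP and 4186 and 4554 CPM in NkdΔ30aa, which overlap. By contrast RpS15 was lower in Nkd (-0.70) and NkdΔ30aa (-0.93), and RpS23, a protein of the decoding site (-0.65), and RpS25 (-0.75) in NkdΔ30aa, all called by edgeR. RpS2 and RpS4 have 1208 and 1449 exon bases, and RpS15, RpS23 and RpS25 have 810, 865 and 857. These genes were not tested against each other. With length offsets, edgeR called 1 of the 84 tested ribosomal protein genes lower in NkdΔ30aa, 1 in NkdΔD6 and 0 in Nkd. That limit also applies to the genes called lower in the paragraphs below. RpS3, which lies at the mRNA entry channel, had -0.50 in NkdΔ30aa, which passed the adjusted p (0.0093) but not the fold threshold.

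The stalk of the large subunit, which recruits translation factors, is built from RpLP0, RpLP1 and RpLP2. RpLP2 was measured at 7690 and 6764 CPM in GFP and 3891 and 3435 CPM in NkdΔ30aa. It was 1.97-fold lower there (log2 -0.98 ± 0.14 SE, edgeR adjusted p = 0.00128), and was also lower in Nkd (-0.65). RpLP0 gave -0.59 in NkdΔ30aa, a call that was close to the fold threshold, and RpLP1 gave -0.35, which did not reach it. The stalk genes thus differed among themselves, from -0.35 to -0.98 in the same disks. Of the proteins lining the exit tunnel, RpL39 was lower in NkdΔ30aa (-1.0) and NkdΔD6 (-0.72), while RpL4 (-0.25, adjusted p = 0.182) and RpL17 (-0.31) were not called in NkdΔ30aa. RpL39 differed widely between the NkdΔ30aa libraries, at 891 and 539 CPM.

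RpL40 and RpS27A are translated as fusions with ubiquitin and RpS30 as a fusion with a ubiquitin-like protein. All 3 were lower in NkdΔ30aa (-0.83, -0.80 and -0.64), and RpS30 was 0.11 with length offsets. In that fit edgeR called 1 of the 84 tested ribosomal protein genes lower in NkdΔ30aa and 0 in Nkd. RpS27A was also lower in Nkd (-0.68), and none of the 3 was called in NkdΔD6 or NkdΔR1S. RpL5 and RpL11, which bind a small rRNA of the large subunit before its assembly, were lower in NkdΔ30aa (-0.74 and -0.62) and were not called in the other groups. RpL5 was measured at 6712 and 6847 CPM in GFP and at 4332 and 3776 CPM in NkdΔ30aa. sta was lower in Nkd (-0.64, adjusted p = 0.0301) and just under the threshold in NkdΔ30aa (-0.57, 1.48-fold).

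RpS12 and RpS6 are the members with the best known regulatory roles. RpS12 is needed in *Drosophila* for the elimination of Minute cells by cell competition. It stood at 4414 and 3427 CPM in GFP and 2406 and 2384 CPM in NkdΔ30aa, with a log2 fold change of -0.71 (adjusted p = 0.00676 by edgeR) that turned to 0.06 with length offsets. RpS6, the substrate of the S6 kinase, stood at 4967 and 4984 CPM in GFP and 3584 and 3452 CPM in NkdΔ30aa. Its change of -0.50 passed the adjusted p (0.0108) but not the fold threshold. RpL23, RpL34a and RpL36A also changed sign in NkdΔ30aa with length offsets, to 0.16, 0.08 and 0.10.

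**Figure D5:**
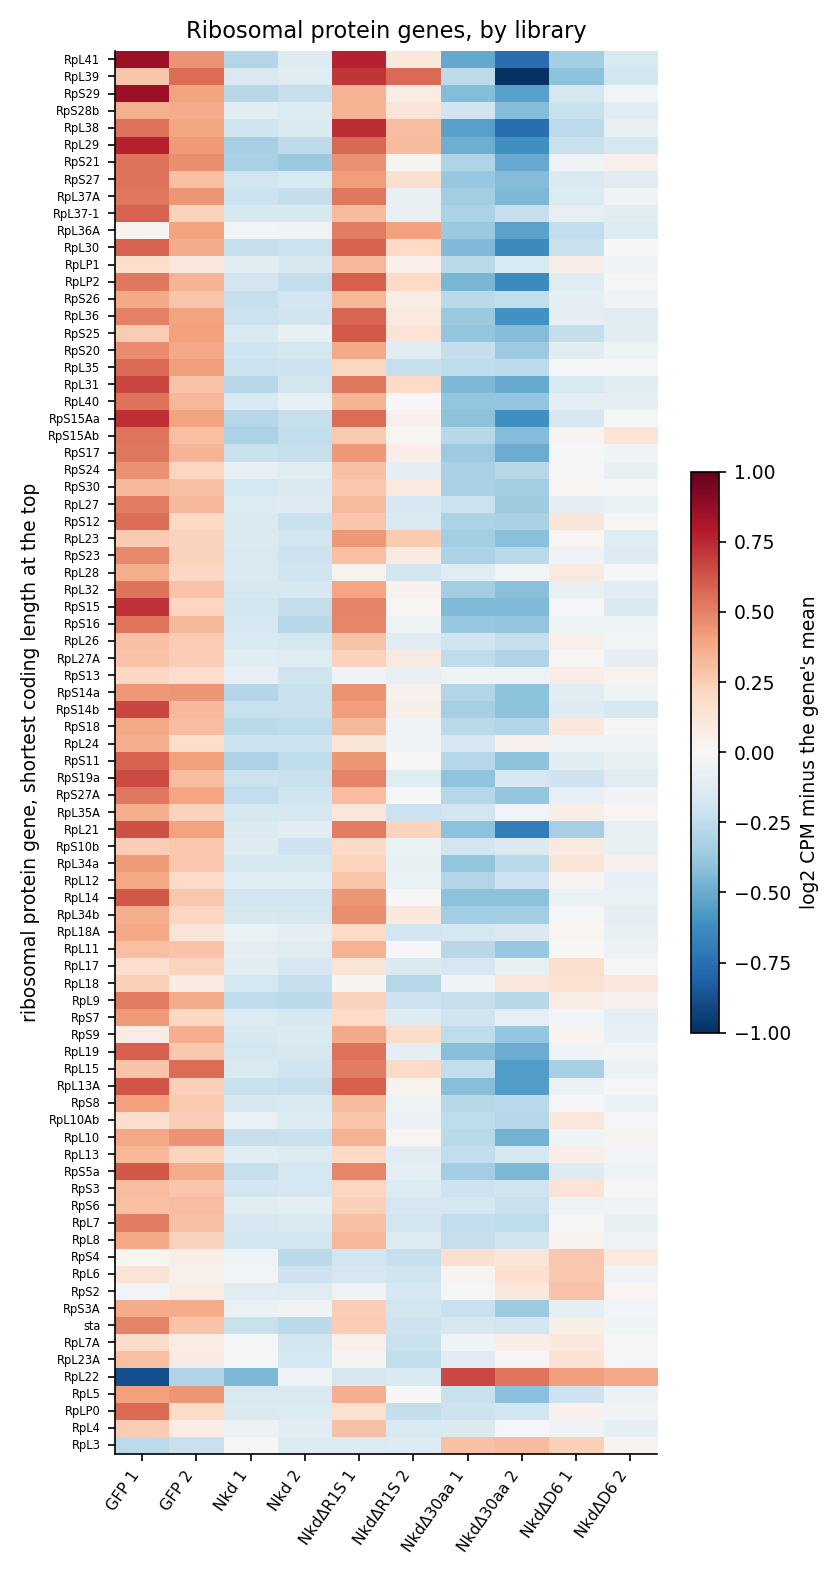
Log2 CPM of each of the 82 ribosomal protein genes with a mean of at least 5 CPM, minus the gene's mean over the 10 libraries (columns), from the shortest coding length at the top to the longest at the bottom. Most genes are red in GFP and NkdΔR1S replicate 1 and blue in Nkd and NkdΔ30aa, and RpL22 and RpL3 are blue in GFP and red in NkdΔ30aa.

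In 9 cases the table holds 2 genes for the same ribosomal protein. Copies can be near-identical, so their counts are uncertain where reads fit both. RpS14b held 19.2% to 23.3% of the counts of the RpS14 pair in all libraries, RpL34a 13.8% to 17.2% of its pair and RpS15Ab 5.12% to 7.08% of its pair. In the other 6 pairs the weaker copy (RpS5b, RpS10a, RpS19b, RpS28a, RpL10Aa and RpL37-2) held under 0.17% in each library. The RpS15A pair shifted slightly between groups, with RpS15Ab at 5.45% and 5.81% in GFP, 6.08% and 6.14% in Nkd, 5.12% and 6.10% in NkdΔR1S, 6.75% and 6.99% in NkdΔ30aa, and 7.08% and 6.87% in NkdΔD6. Nkd, NkdΔ30aa and NkdΔD6 lay above both GFP libraries, and NkdΔR1S overlapped with GFP. These shares were not tested. RpS15Aa was lower in NkdΔ30aa by 1.08 on the log2 scale and RpS15Ab by 0.77. Both copies of RpS14 were lower in Nkd (RpS14a -0.69, RpS14b -0.73) and NkdΔ30aa (-0.79 and -0.88).

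The genes were also split by position and structure, without a test between the parts. The 15 genes on chromosome X had a median of -0.70 in NkdΔ30aa and the 69 tested genes on other chromosomes -0.66. The 48 tested large subunit genes had -0.67 with 29 lower, and the 36 tested small subunit genes -0.69 with 25 lower. In Nkd the large and small subunit genes had -0.53 with 15 lower and -0.60 with 17 lower. Their medians were -0.39 and -0.45 in NkdΔD6 and -0.19 and -0.25 in NkdΔR1S. In NkdΔ30aa the 29 genes with snoRNA genes inside them had a median of -0.61 with 15 lower. The 55 without had -0.70 with 39 lower. The median exon lengths of these 2 parts were 1100 and 842 bases, and their medians with length offsets were 0.005 and -0.097. How strand was handled in counting is unknown here, and 18 of the 88 genes share over 5% of their exon bases with another gene. The 66 tested genes that do not had a median of -0.68 in NkdΔ30aa with 44 lower.

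Compared with Nkd disks, few ribosomal protein genes were called in the deletion forms. In NkdΔ30aa, 1 gene was higher and 0 were lower (0 lower also by DESeq2 and with the p left unadjusted at 0.05), where 5.86% of all genes tested were higher and 0.82% lower. With the adjusted p alone the counts were again 1 and 0, where 7.33% and 1.06% of all genes tested were called. The median of the ribosomal protein genes was -0.13, against -0.17 for genes of like length, and turned to 0.05 with length offsets. Without offsets, both libraries lay below both Nkd libraries for 59 of 84 genes (27.5% of all genes tested, 43.6% of those of like length) and above for 11 (35.2% of all genes tested, 10.3% of those of like length). The gene was RpL22, which was 1.78-fold higher in NkdΔ30aa than in Nkd disks (log2 0.83 ± 0.19 SE, edgeR adjusted p = 0.0392). The call was lost without any 1 of the 4 libraries involved (adjusted p from 0.0824 to 0.318) and with length offsets (adjusted p = 0.0843). In NkdΔD6, 0 were called in either direction (with the p left unadjusted at 0.05, 1 higher and 0 lower, and by DESeq2 up to 1 higher), where 0.0756% of all genes tested were higher and 0.054% lower. Both libraries lay above both Nkd libraries for 66 of 84 genes (26.5% of all genes tested, 27.6% of those of like length) and below for 2 (22.3% and 17.0%). The median was 0.14, against 0.03 for genes of like length, and RpL22 was 0.63 with an adjusted p of 0.347.

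In NkdΔR1S, edgeR also called 0 in either direction against Nkd, where 0.13% of all genes tested were higher and 0.054% lower, but the values stood higher. The median was 0.35, and both NkdΔR1S libraries lay above both Nkd libraries for 62 of 84 genes (24% of all genes tested). For genes of like length the median was 0.20 with 45.8% above, and with length offsets the median of the ribosomal protein genes was 0.06. With the p left unadjusted at 0.05 there were 8 higher and 0 lower. DESeq2 called 6 higher in a fit of all libraries and 5 in a fit of the 4 libraries, and edgeR called 9 without NkdΔR1S replicate 2, the library with the lower share of ribosomal protein counts. The largest values were those of RpL39 (0.78), RpL29 (0.75), RpL38 (0.71) and RpL41 (0.68).

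Lists of genes that act with the ribosome were read against the shares of all genes tested given above. Of 36 tested genes of ribosome biogenesis, 4 were higher and 0 lower in Nkd, 7 higher and 3 lower in NkdΔ30aa, 4 higher and 0 lower in NkdΔD6, and 0 called in NkdΔR1S, with medians of 0.14, 0.07, 0.04 and 0.01. The 19.4% higher and 8.33% lower in NkdΔ30aa compare with 18.2% and 12.8% of all genes tested. Among them were mahe (1.59) and l(2)k09022 (1.67), which were higher in NkdΔ30aa, and Nop10, a protein of the H/ACA snoRNP that guides pseudouridylation (-0.80), and hoip (-0.65), which were lower. Of 28 tested genes of translation initiation, 4 were higher and 4 lower in NkdΔ30aa, or 14.3% each, also near the shares of all genes, with eIF4G1, the scaffold of the cap-binding complex, at 1.13 and eIF1 at -0.93. Of 8 tested genes of elongation and termination, 1 was called, eEF1alpha1, which delivers aminoacyl-tRNA to the ribosome, at 0.83 in NkdΔ30aa and 0.69 in NkdΔD6.

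Of 21 tested genes of RNA polymerases I and III, which make rRNA and tRNA, 6 (28.6%) were higher and 3 (14.3%) lower in NkdΔ30aa. Polr1A and Polr3A, the largest subunits, both stood at 0.93, and Polr1D (-0.89) and Maf1 (-0.86), a repressor of RNA polymerase III, were lower. Of 19 tested regulators of ribosomal protein genes and translation, 10 (52.6%) were higher and 2 lower in NkdΔ30aa, 8 and 2 in NkdΔD6, 2 and 1 in Nkd and 0 in NkdΔR1S. Trf2, which takes part in transcription from ribosomal protein gene promoters in *Drosophila*, was at 1.84 and larp at 1.56 in NkdΔ30aa, while Irbp18 was at -1.09 and crc, the fly ATF4, at -0.93. The regulators are long genes (median of 4826 exon bases), and their median in NkdΔ30aa was 1.15, or 0.22 with length offsets.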

How the data were processed

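RNA-seq of wing disks was analysed in 10 libraries, 2 for each of 5 groups taken from the sample labels. The deposited table gives unnormalized counts for each gene, with its exon length in bases. The authors used HISAT2 2.2.1 for alignment to BDGP6 and featureCounts for counting. Its version, its strand setting and the unit it counted, reads or fragments, were not given in the sources used here. Gene spans of all 88 genes equalled those in the reference annotation, from which coding lengths and overlaps were taken.

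All 10 libraries entered 1 model with a coefficient per group (5 residual degrees of freedom), fitted by edgeR 4.0.16 under R 4.3.3 after filterByExpr and TMM. The test was the robust quasi-likelihood F test, with Benjamini-Hochberg adjusted p over 9264 genes of 14420 with a count. Standard errors were derived from the log2 fold change and the square root of F. The code was tested on simulated data. Alternatives were RLE normalization, TMM without the ribosomal protein genes, no filter, DESeq2 1.42.0, edgeR on 4 libraries, a replicate block, length offsets (lowess span 0.3, prior count 2), other thresholds and leaving out each library in turn.

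The ribosomal protein genes and the other lists were chosen with earlier results of these data known. Members named are the 4 highest and 4 lowest fold changes of each comparison among those of at least 5 CPM, the paralogs, the 5 highest and 5 lowest levels per kb and those with listed roles. From other lists, at most the 2 highest and 2 lowest called genes are named. Marker sums of fat body, hemocytes, larval muscle and gut were 350 to 2050, 11.8 to 37.4, 27.7 to 134 and 14.0 to 134 CPM. Promoter sequences were not analysed here.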

Additional observations from a re-analysis of the deposited data

Results flagged for a closer look

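RpL22 is listed here because its response differed between groups in a test of the difference itself. Its level was 563 and 746 CPM in Nkd disks and 1215 and 1115 CPM in NkdΔ30aa disks, a log2 fold change of 0.83 between them (standard error 0.19, adjusted p = 0.0392 by edgeR over 9264 genes). Both NkdΔ30aa libraries lay above both Nkd libraries. The call was lost under 8 of 12 alternatives, among them leaving out any 1 of the 4 libraries.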

How the results depend on the processing

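The median log2 fold change of the ribosomal protein genes stayed negative against GFP under every alternative for which it was computed, but the counts called depended on the setting. In Nkd against GFP, 32 lower genes became 16 with RLE normalization, 19 with TMM without the ribosomal protein genes, 15 with no filter, 19 with DESeq2 on all libraries, 0 with edgeR on the 4 libraries, 0 with length offsets, 59 with the adjusted p alone and 0 to 16 without a library, and the count of higher genes 0 to 1 without a library. In NkdΔ30aa the 54 lower genes became 1 with length offsets and 45 to 56 without a library, and the higher genes 2 with RLE, either DESeq2 fit, edgeR on the 4 libraries, length offsets or the adjusted p alone, and 1 to 2 without a library. In NkdΔD6 the 14 lower genes became 5 with RLE, 7 with TMM without the ribosomal protein genes, 5 with no filter, 6 with either DESeq2 fit, 8 with edgeR on the 4 libraries, 1 with length offsets, 40 with the adjusted p alone and 0 to 13 without a library, and the higher genes 2 with the adjusted p alone and 0 to 1 without a library. Against Nkd, the 0 higher genes of NkdΔR1S became 1 with no filter, 6 and 5 with DESeq2, 8 at an unadjusted p (chosen after seeing the data) and 0 to 9 without a library. The 1 higher gene of NkdΔ30aa became 0 with RLE, TMM without the ribosomal protein genes, no filter, length offsets or without any library, and the 0 of NkdΔD6 became 1 with DESeq2 on the 4 libraries and at an unadjusted p. Medians with length offsets were -0.12 in Nkd, -0.0796 in NkdΔ30aa and -0.0296 in NkdΔD6, and without a library -0.50 to -0.45 in Nkd, -0.31 to -0.01 in NkdΔR1S, -0.72 to -0.61 in NkdΔ30aa and -0.39 to -0.31 in NkdΔD6. The mean share of counts in Nkd was 25.4% without tissue markers. In NkdΔ30aa against GFP, RpL23 (0.16), RpL34a (0.0771), RpL36A (0.10), RpS12 (0.0586) and RpS30 (0.11) changed sign with length offsets. The cause of these shifts was not tested.

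Replicate numbers are shared by the groups, but no source says that they pair samples, and the correlation between groups of the difference between replicates 1 and 2 ran from -0.223 to 0.374. With the replicate number as a block, 31, 53 and 11 genes were lower in Nkd, NkdΔ30aa and NkdΔD6, and 1 was higher in each of NkdΔ30aa and NkdΔD6.

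With 2 libraries a group, precision is set by the spread between them rather than by depth. Without a library, its group's lone sample is assumed to vary like the other groups.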
